A study of Homo sapiens with 4 samples.

Results

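The enzymes that write and erase DNA methylation, the factors that guide them, and the insulator protein CTCF were followed in OVCAR-3 cells labelled as overexpressing the linker histone H1.3 and in OVCAR-3 cells given a vector alone. The set holds 10 genes, taken as the rows of the value table whose platform annotation gives the symbol DNMT1, UHRF1, DNMT3A, DNMT3B, DNMT3L, TET1, TET2, TET3, TDG or CTCF. All 10 were found, on 12 of the 33297 transcript clusters of the array, and none of the 12 is annotated to a further gene. UHRF1 and TET2 have 2 clusters each, and the cluster of higher mean stands for the gene. The series has 4 one-colour arrays, 2 from OVCAR-3 cells labelled as overexpressing human H1.3 (written H1.3(H) in the titles, where the H in brackets is not explained) and 2 from OVCAR-3 cells given the vector lacking H1.3. OVCAR-3 is an established human ovarian carcinoma cell line, both groups were grown in the same medium with fetal bovine serum, and no other treatment is named. Replicates are called biological, but the labels do not say whether they are separate transfections, cultures or clones, so the p-values measure only the spread between these arrays, which may be technical.

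DNA methylation places a methyl group on the cytosine of CpG pairs. DNMT3A and DNMT3B set new marks, helped by the inactive cofactor DNMT3L, while DNMT1 copies marks onto the new strand after replication, brought there by UHRF1, which reads hemimethylated CpG. The TET enzymes oxidise methylcytosine, and TDG excises the later oxidation products so that repair can restore an unmodified base. At imprint control regions one parental copy is methylated, and at the control region between IGF2 and H19 CTCF binds the unmethylated copy and insulates IGF2 from its enhancers. In mouse embryonic stem cells, loss of linker histones lowers methylation at imprinted regions and linker histones bind DNMT1 and DNMT3B, which is why the levels of this machinery are of interest in cells given H1.3.

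No member was called in the comparison of the arrays labelled H1.3 with the vector arrays. By limma with Benjamini-Hochberg adjustment over all 21214 clusters with a symbol, 0 of the 10 genes passed an adjusted p of 0.05, against a background of 0.504% of all clusters, and the members' adjusted p ran from 0.610 to 0.991. At an unadjusted limma p of 0.05, 0 of the 10 genes and 0 of the 12 clusters passed, against 11.5% of all clusters. The values of the 2 groups did not overlap for 2 of the 10 genes, against 40.6% of all clusters. The median log2 difference was -0.01 over the members and 0.015 over all clusters, and the median absolute difference was 0.112 over the members and 0.12 over all clusters.

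The arrays were alike in scale, with a median log2 level of 6.21 to 6.27 each, and Pearson's r over the named clusters (genes, not replicates) was 0.993 for both pairs of replicates and at least 0.987 for any other pair. H1-3, the gene for H1.3, measured 7.47 and 7.69 in the arrays labelled H1.3, against 8.65 and 7.88 in the vector arrays, a log2 difference of -0.69 ± 0.24 (SE) with an adjusted limma p of 0.319. The level of the targeted gene therefore ran against the label, and the sources do not say whether its probes match the transfected sequence. Every direction below is that of the arrays labelled H1.3. All 9 measured markers of carcinoma epithelium, among them PAX8, WT1 and MUC16, lay above the median level of the named clusters. None of the 4 leukocyte and 4 endothelial markers measured did, and of 5 fibroblast markers only COL1A1 did.

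The 250 bases before the listed start of 4 members are shown because they span the range of CpG content found in such windows of the set. They come from the RefSeq promoter table of build GRCh38.p14, are written 5′ to 3′ on the gene's strand, and have each CpG in capitals. DNMT3B at chr20:32779602-32779851 (plus strand) had the fewest CpG, TET1 at chr10:68560087-68560336 (plus strand) is the member of largest difference, UHRF1 at chr19:4909251-4909500 (plus strand) holds an E2F-type match, and CTCF at chr16:67562276-67562525 (plus strand) had the most CpG.
DNMT3B: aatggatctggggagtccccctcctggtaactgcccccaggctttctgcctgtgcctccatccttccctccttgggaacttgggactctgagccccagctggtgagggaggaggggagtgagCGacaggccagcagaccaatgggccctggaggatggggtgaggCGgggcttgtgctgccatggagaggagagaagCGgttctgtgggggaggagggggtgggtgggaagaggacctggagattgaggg
TET1: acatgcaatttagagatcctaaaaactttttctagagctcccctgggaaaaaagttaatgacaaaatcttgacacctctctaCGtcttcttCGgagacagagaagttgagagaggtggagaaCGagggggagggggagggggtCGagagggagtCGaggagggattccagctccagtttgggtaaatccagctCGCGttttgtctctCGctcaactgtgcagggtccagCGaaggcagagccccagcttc
UHRF1: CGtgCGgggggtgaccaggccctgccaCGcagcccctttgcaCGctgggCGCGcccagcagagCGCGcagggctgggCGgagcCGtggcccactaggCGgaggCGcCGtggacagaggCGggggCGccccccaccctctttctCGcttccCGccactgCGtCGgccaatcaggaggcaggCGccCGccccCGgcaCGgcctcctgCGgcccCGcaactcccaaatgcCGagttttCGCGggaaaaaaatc
CTCF: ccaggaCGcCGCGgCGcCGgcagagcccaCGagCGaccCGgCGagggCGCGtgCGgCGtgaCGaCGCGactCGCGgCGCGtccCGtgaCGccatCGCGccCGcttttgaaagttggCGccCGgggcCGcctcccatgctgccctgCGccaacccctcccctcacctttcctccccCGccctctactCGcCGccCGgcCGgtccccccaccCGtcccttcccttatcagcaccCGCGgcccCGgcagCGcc

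Of the 10 genes, 9 had an entry in that table; DNMT3L was not matched. The window held 3 CpG for DNMT3B, 9 for TET1, 10 for TET2, 21 each for DNMT1 and DNMT3A, 22 for TDG, 28 for UHRF1, 37 for TET3 and 39 for CTCF, against a median of 11 over 27305 promoters. Thus 6 of the 9 lay above that median, and only 2.5% of promoters held as many CpG as that of CTCF. An E2F-type motif (TTTCGCGC, TTTGGCGC, TTTCCCGC or TTTGCCGC on either strand) was found only in the UHRF1 window, against 2.8% of all promoters. A GC box (GGGCGG, either strand) was found in 3 of the 9, against 42.3% of promoters, and a CCAAT box (CCAAT, either strand) in 3, against 33.0%. The E2F and GC box motifs can share bases, and these matches describe letters only. Each gene is represented by 1 entry, so a gene with several start sites, as DNMT3A has, is shown at 1 of them. Whether the DNMT3B window, with its 3 CpG, lies at the main start of that gene was not examined. Its count is that of the listed start only and does not describe other starts of DNMT3B.

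DNMT1, the maintenance methyltransferase, measured 9.26 and 9.30 in the arrays labelled H1.3, against 9.35 and 9.47 in the vector arrays. The groups did not overlap, but the log2 difference was only -0.13 ± 0.12 (SE, n = 2 each), with a 95% interval from -0.41 to 0.15 and an adjusted limma p of 0.756. The interval reaches a level 1.325-fold lower and a level 1.106-fold higher in the arrays labelled H1.3.

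UHRF1, which directs DNMT1 to replicated DNA, measured 8.79 and 8.39 in the arrays labelled H1.3, against 8.74 and 8.46 in the vector arrays. The arrays of each group lay further apart than the group means, whose log2 difference was -0.01 ± 0.17 (SE), with an interval from -0.41 to 0.39. The other UHRF1 cluster, annotated through cDNA clones with no RefSeq transcript, was dim and measured 5.52 and 5.12 in the arrays labelled H1.3, against 5.38 and 5.68 in the vector arrays. Its difference of -0.21 ± 0.17 (SE) did not pass either, at an adjusted limma p of 0.729.

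The de novo enzymes overlapped between the groups as well. DNMT3A measured 7.88 and 7.93 in the arrays labelled H1.3, against 8.01 and 7.82 in the vector arrays, a log2 difference of -0.01 ± 0.12 (SE) with an interval from -0.30 to 0.28. DNMT3B measured 7.30 and 7.74 in the arrays labelled H1.3, against 7.32 and 7.98 in the vector arrays. Replicate 2 was the higher array of both groups for DNMT3B, by 0.44 in the arrays labelled H1.3 and by 0.66 in the vector arrays. Its log2 difference was -0.13 ± 0.24 (SE), and the interval, from -0.69 to 0.43, reaches a level 1.61-fold lower in the arrays labelled H1.3. That difference was 0.20 without vector replicate 2 and 0.09 without H1.3 replicate 1, against -0.46 without vector replicate 1 and -0.35 without H1.3 replicate 2, so its sign was set by the array left out.

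DNMT3L, a germline cofactor that stimulates DNMT3A and DNMT3B, measured 5.46 and 4.97 in the arrays labelled H1.3, against 5.19 and 5.01 in the vector arrays. Its log2 difference was 0.12 ± 0.18 (SE), with an interval from -0.30 to 0.53. The cluster lay below 6.84, the median level of the named clusters, on all arrays. Without H1.3 replicate 1 its difference was -0.13, and without H1.3 replicate 2 it was 0.36.

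**Figure D1:**
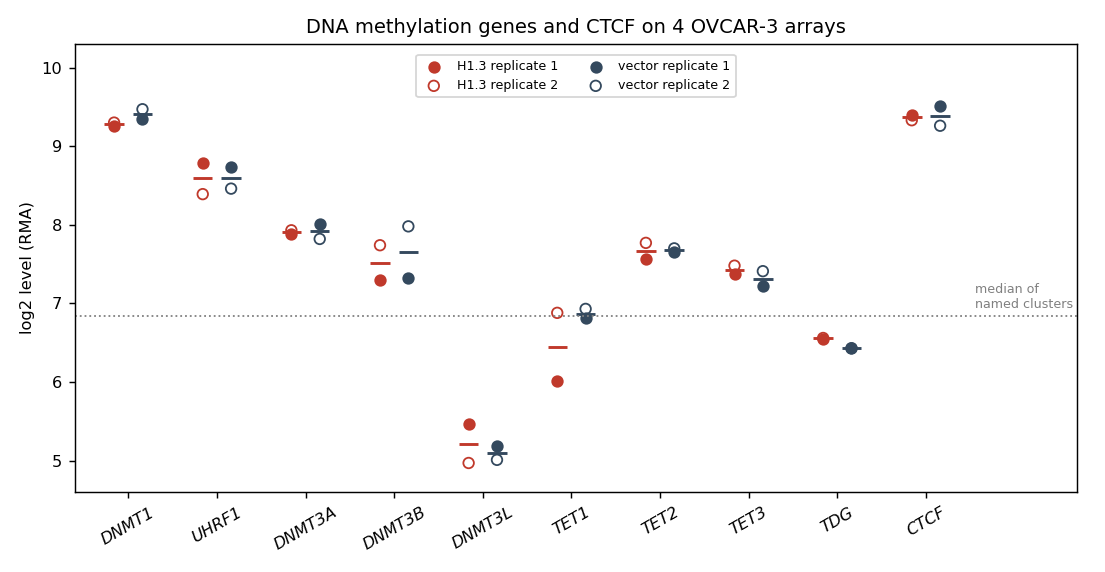
Log2 level (vertical axis) of each of the 10 genes on the arrays labelled H1.3 (red, left of each pair) and the vector arrays (dark, right), with filled points for replicate 1, open points for replicate 2 a bar at the group mean of 2 arrays and a dotted line at the median level of the named clusters, 6.84. Levels are to be read within a gene, since probes differ between genes; only DNMT1 and TDG show groups that do not overlap, and TET1 has 1 array at 6.01 with the other 3 between 6.81 and 6.93.

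TET1, a dioxygenase that oxidises methylcytosine, had the largest difference of the set. It measured 6.01 and 6.88 in the arrays labelled H1.3, against 6.81 and 6.93 in the vector arrays. The low value was that of 1 array, H1.3 replicate 1, and the other array of that group lay between the vector arrays. The log2 difference was -0.43 ± 0.26 (SE), with an interval from -1.03 to 0.18 and an adjusted limma p of 0.610, the lowest of the set. It was 0.01 without H1.3 replicate 1 and -0.86 without H1.3 replicate 2, where the adjusted limma p was 0.433.

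TET2, which lacks the CXXC domain found in TET1 and TET3, measured 7.57 and 7.77 in the arrays labelled H1.3, against 7.65 and 7.70 in the vector arrays, so the vector values lay between the others. Its log2 difference was -0.005 ± 0.12 (SE), with an interval from -0.30 to 0.29. The second TET2 cluster, which is annotated to another RefSeq transcript besides the one both clusters share, measured 6.95 and 7.18 in the arrays labelled H1.3, against 7.04 and 7.25 in the vector arrays. Its difference was -0.08 ± 0.14 (SE).

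TET3, the third enzyme of the family and the one known for oxidising the paternal genome of the mouse zygote, measured 7.37 and 7.48 in the arrays labelled H1.3, against 7.22 and 7.41 in the vector arrays. The groups overlapped, and the log2 difference was 0.11 ± 0.13 (SE), with an interval from -0.19 to 0.41.

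TDG, the glycosylase that removes formylcytosine and carboxylcytosine, measured 6.55 and 6.56 in the arrays labelled H1.3, against 6.43 and 6.43 in the vector arrays. It was the member whose replicates lay closest together, and both arrays labelled H1.3 were above both vector arrays, yet the log2 difference was 0.13 ± 0.11 (SE) with an adjusted limma p of 0.756. Left-out arrays moved it only between 0.12 and 0.13. A linear model without limma's moderation gave an unadjusted p of 0.0016 for TDG, from replicates that differ by 0.01 and 0.00 in values given to 2 decimals, and an adjusted p of 0.610. RefSeq lists a TDG pseudogene, TDGP1, and whether probes of the cluster also match it was not tested.

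CTCF measured 9.40 and 9.33 in the arrays labelled H1.3, against 9.51 and 9.26 in the vector arrays. Both values of the first group lay inside the range of the second, and the log2 difference was -0.02 ± 0.13 (SE), with an interval from -0.33 to 0.29.

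**Figure D2:**
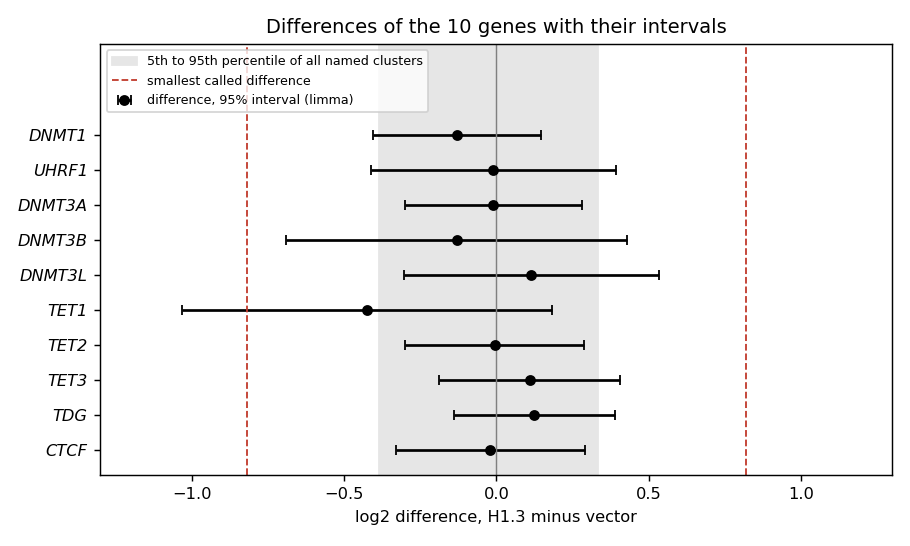
Log2 difference of each gene, arrays labelled H1.3 minus vector arrays (horizontal axis), with its 95% interval from limma over 2 arrays against 2; the grey band spans the 5th to 95th percentile of all named clusters (-0.385 to 0.335) and the dashed lines mark the smallest difference that was called anywhere, 0.82 in size. The intervals of all 10 genes include 0, and only the point of TET1 lies outside the grey band.

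Each interval gives the differences that the limma fit allows for a gene, with the spread between these arrays as the only error. Through moderation its width also rests on the variances of other clusters. For TDG the SE was 0.112 in the main fit, against 0.005 without moderation. The intervals therefore set no firm limit on a change that these arrays could miss. For 8 of the 10 genes the interval lay within a 1.5-fold change in either direction, the exceptions being DNMT3B and TET1, and for 9 it lay within a 2-fold change, the exception being TET1, whose interval reaches a level 2.04-fold lower in the arrays labelled H1.3. In simulated data for this comparison over 21214 clusters, 76% of clusters changed 2-fold and 0% of those changed 1.5-fold were called, and the smallest difference called in the real data was 0.82 in size. A 1.5-fold change was therefore not called at the adjusted threshold in that simulation. It drew the variance of every cluster from 1 common distribution, so it does not give the chance of a call for any single member. Uncalled members are not shown to be equal between the groups.

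**Figure D3:**
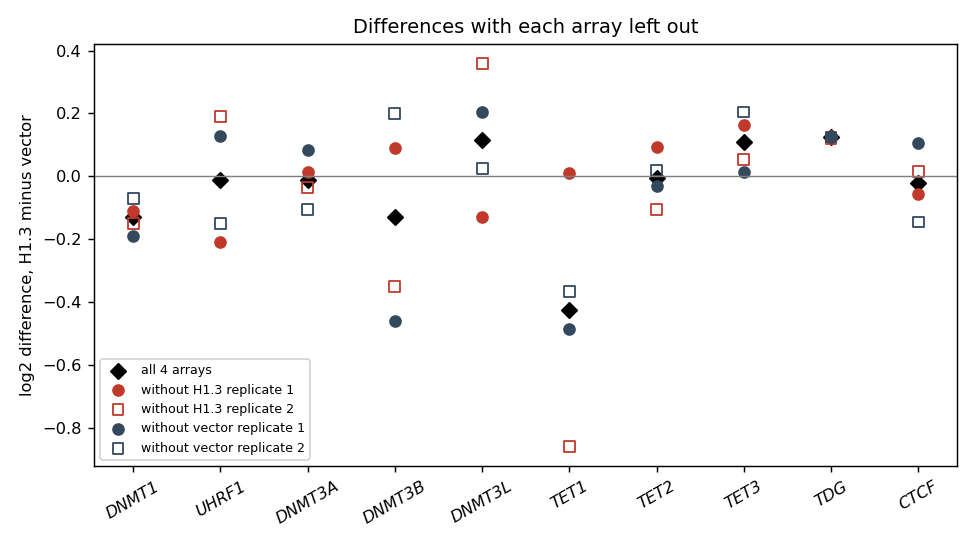
Log2 difference of each gene (vertical axis) with all 4 arrays (black diamonds) and with each array left out in turn (red for arrays labelled H1.3, dark for vector arrays; filled circles when replicate 1 is left out, open squares for replicate 2). DNMT1 stays below 0 and TET3 and TDG above it under every omission, and the points of the other 7 genes fall on both sides of 0.

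The members with the largest differences were also set beside the genes whose pattern over the 4 arrays lay nearest, by Euclidean distance between centred log2 values among 9768 single-gene clusters at or above the median level. For TET1 these were CPVL at a distance of 0.0671, VLDLR at 0.118 and the small nuclear RNA gene RNU5D-1 at 0.128, each lowest in H1.3 replicate 1. DNMT1 and DNMT3B tied for the next largest difference. DDB2, PTPDC1 and RYK lay nearest to DNMT1, at 0.0166, 0.0173 and 0.0245, and PLEKHM2, ABCC1 and SLC16A7 nearest to DNMT3B, at 0.0841, 0.0942 and 0.108. With 4 points a close pattern is common and is given as a description only.

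Genes next to each other on a chromosome can differ together in a cancer line, so 30 neighbouring genes at or above the median level were examined for each member. These genes were the next ones in order of start, in equal numbers on either side. Their median log2 difference was -0.22 around DNMT3B on chromosome 20, where 24 of 30 were negative, -0.12 around DNMT3L on chromosome 21 and -0.10 around TET1 on chromosome 10, where 26 of 30 were negative. Around the other 7 members it lay between -0.015 and 0.062. The part of the neighbours in the values of DNMT3B, DNMT3L and TET1 was not tested.

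Genes that work with the members were counted on 11 lists holding 145 measured genes. By limma over all clusters 0 of the 145 passed in either direction, against 0.504% of all clusters, and 15 (10.34%) had an unadjusted p under 0.05, against 11.5% of all clusters. The median log2 differences of the lists ran from -0.12 to 0.07. As background for the counts of sign below, 45.9% of all clusters, dim ones included, were negative. The median difference was 0.015 over all clusters and -0.01 over those at or above the median level. No count of signs was tested.

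Partners of maintenance methylation had the lowest list median, -0.12 over 11 genes, 8 of them negative. CDCA7L, a relative of the HELLS activator CDCA7, measured 8.43 and 8.72 in the arrays labelled H1.3, against 9.56 and 9.43 in the vector arrays, a log2 difference of -0.92 ± 0.14 (SE) with an adjusted limma p of 0.0530. It thus missed the threshold, and its 30 neighbours on chromosome 7 had a median difference of -0.20. HELLS, a chromatin remodeller needed for methylation of repeats, differed by -0.32, with an adjusted p of 0.422. Among 10 methyl-CpG readers, of which 8 were positive with a median of 0.07, UHRF2, the relative of UHRF1, differed by -0.35 and MBD5 by 0.26, with adjusted p of 0.361 and 0.552. The neighbours of UHRF2 and HELLS had medians of -0.26 and -0.17, and those of MBD5 had a median of -0.002. The part of neighbours in these values was not tested.

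On the erasing side, 8 of 11 genes of base excision repair were negative, with a median of -0.08. NEIL2, a glycosylase, measured 7.27 and 7.35 in the arrays labelled H1.3, against 7.99 and 7.86 in the vector arrays, a log2 difference of -0.62 ± 0.12 (SE) with an adjusted limma p of 0.0925. Its 24 neighbours on chromosome 8 had a median difference of -0.46, and their part in the value was not tested. APEX1, the endonuclease that cuts abasic sites, differed by -0.28, among neighbours with a median of -0.1.

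The TET enzymes need 2-oxoglutarate, which isocitrate dehydrogenases supply. IDH2, the mitochondrial form, measured 7.61 and 7.67 in the arrays labelled H1.3, against 8.75 and 8.17 in the vector arrays, a log2 difference of -0.82 ± 0.19 (SE) with an adjusted limma p of 0.135. The groups did not overlap, and the neighbours of IDH2 had a median of -0.01. IDH1 and IDH3A, on the same list, went the other way, by 0.345 and 0.095, with groups that overlapped and adjusted limma p of 0.596 and 0.894. OGT, a glycosyltransferase that binds TET proteins, differed by -0.23, among neighbours with a median of 0.022. The median over 10 TET partners was -0.11.

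Of 13 measured genes of the methyl donor cycle, AHCY, which clears the methyltransferase inhibitor S-adenosylhomocysteine, differed by -0.29 and SHMT2 by -0.27, and the list median was -0.015. Of the 30 neighbours of AHCY 25 were negative, with a median of -0.145. Of 15 genes for cohesin, its loaders and CTCF partners, the cohesin subunit gene SMC1A differed by -0.29 and CDCA5, the cohesin stabiliser sororin, by -0.29, and the median was 0.03. Of the 30 neighbours of CDCA5 27 were negative, with a median of -0.148. Around SHMT2 and SMC1A the neighbours had medians of 0.03 and 0.02. The part of neighbours in these values was not tested. Of 13 genes listed as imprint protection and establishment factors, RBBP4 differed by -0.22 and PADI6 by 0.16, with a median of 0.055. PADI6 lay below the median level of the named clusters on all arrays. Around RBBP4 and PADI6 the neighbours had medians of -0.073 and -0.012. Of 9 genes for PRC2 and related histone methylation, the PRC2 subunit gene EED differed by -0.47, among neighbours on chromosome 11 with a median of -0.51, and NSD3 by -0.30, among neighbours with a median of -0.30.

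DNMT1 and UHRF1 are expressed with S phase in dividing cells. Of 16 genes of S phase and proliferation, all at or above the median level, 13 lay below 0, 1 at 0 and 2 above. Over all clusters, dim ones included, 45.9% were negative. The negative share among clusters at or above the median level was not counted, so the 2 shares are not like for like. The list median was -0.07, against -0.01 over clusters at or above the median level. TYMS, thymidylate synthase, differed by -0.57 with an adjusted limma p of 0.141, and MCM3, a subunit of the replicative helicase, by -0.26. The neighbours of TYMS had a median of -0.22, and those of MCM3 had a median of 0.002.

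Genes known to be kept silent or monoallelic by DNA methylation were counted as well. Of 15 measured germline genes, 8 were positive and 7 negative with a median of 0.015, and only 1 lay above the median level. SSX1, a cancer-testis gene, measured 5.33 and 5.35 in the arrays labelled H1.3, against 4.73 and 4.51 in the vector arrays, a log2 difference of 0.72 ± 0.13 (SE) with an adjusted limma p of 0.0798. The values of SSX1 lay below the median level of 6.84 in both groups, and X-linked SSX genes resemble each other in sequence. MAGEB2 differed by 0.22, with an adjusted p of 0.563. Around SSX1 and MAGEB2 the neighbours had medians of 0.032 and 0.002.

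Of 22 imprinted genes with a single-gene cluster, 11 were positive and 11 negative, with a median of 0.002. NAP1L5, a paternally expressed gene, measured 7.48 and 7.39 in the arrays labelled H1.3, against 6.70 and 6.87 in the vector arrays, a log2 difference of 0.65 ± 0.12 (SE) with an adjusted limma p of 0.0922. MEST, also paternally expressed, differed by -0.44, with an adjusted p of 0.194. Around NAP1L5 and MEST the neighbours had medians of -0.062 and 0.018. Both genes had groups that did not overlap, as did 11 of the 22 imprinted genes, against 40.6% of all clusters.

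**Figure D4:**
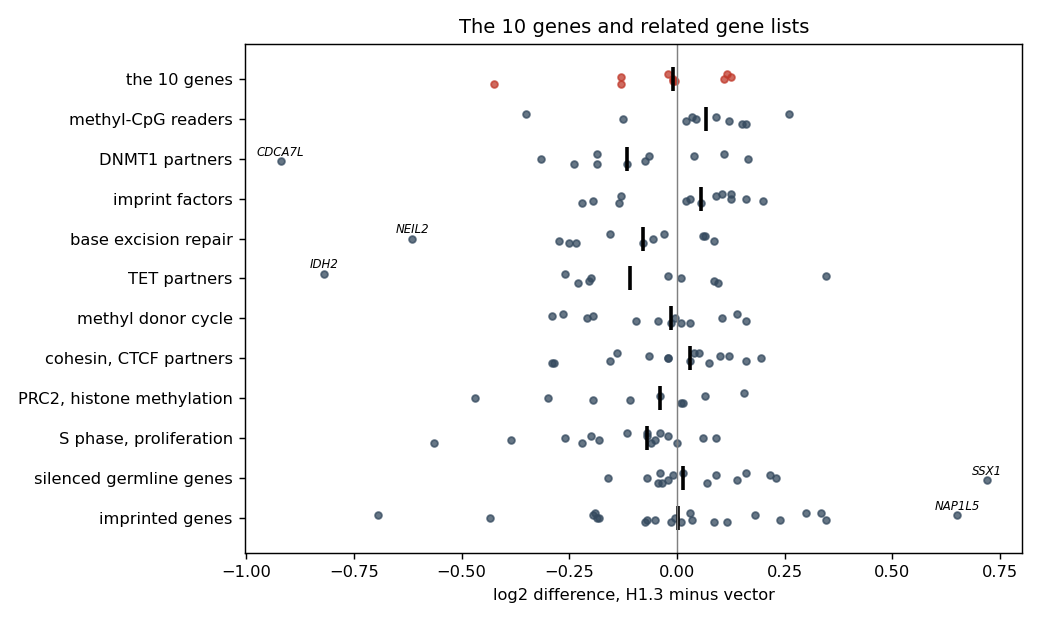
Log2 difference, arrays labelled H1.3 minus vector arrays (horizontal axis), of the 10 genes (red) and of each measured gene on 11 related lists (dark), with a black bar at each list's median and points offset vertically for legibility. The list medians lie between -0.12 and 0.07, and the genes labelled are CDCA7L, IDH2, NEIL2, SSX1 and NAP1L5. The imprinted gene GRB10, at -0.695 with an adjusted limma p of 0.319, lies farther out than NEIL2 and NAP1L5 but is not labelled. None of these genes passed the adjusted threshold.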

How the data were processed

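RNA levels were measured on 2 arrays labelled H1.3 and 2 vector arrays. The authors deposited log2 values per transcript cluster; the submitters' processing notes name RMA and Affymetrix Expression Console, without a version or setting. The series text names an exon array, whereas the identifiers are those of a gene array annotation. Of 33297 clusters, 19460 had 1 symbol, 1754 several and 12083 none; symbols were updated through gene identifiers to RefSeq, assembly GRCh38.p14. No probe intensities or detection values were used, so signal over background could not be examined.

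The 21214 clusters with a symbol were fitted together with limma 3.58.1 in R 4.3.3 (lmFit, eBayes, two-sided, no covariate; 2 residual and 5.16 prior degrees of freedom) and adjusted by Benjamini-Hochberg, threshold 0.05. The median standard error of a difference was 0.128. Every member is named; of each list, called genes up to 4 or else the 2 of smallest p; and the 3 nearest patterns of the members of largest difference. No list was tested as a set. Members and lists were chosen with earlier results of these data known. Alternatives changed moderation, scaling, filter, clusters tested, threshold and arrays. The labels name no shared batch and do not say whether replicate numbers pair the arrays, and the main fit did not pair them. Replicate differences of the 2 groups correlated at 0.063 over the named clusters, which cannot show that the arrays are unpaired. The fit was tested on simulated data. Python 3.11.15 with matplotlib 3.10.9 drew the figures.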

Additional observations from a re-analysis of the deposited data

How the results depend on the processing

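Under every alternative that kept all 4 arrays, 0 members were called. Among these, only the linear model without moderation put a member at an unadjusted p under 0.05, which was TDG at 0.0016. Without H1.3 replicate 2, where 1 array stands for that group, the difference of TET1 was -0.86. Calls over all clusters, 51 higher and 56 lower, were 1 and 3 when unnamed clusters were tested too, 6 and 19 when clusters dimmer than the median were dropped (which removes TET1, DNMT3L and TDG), 6 and 3 when variances were not moderated, 19 and 31 when array medians were aligned, 29 and 38 when values were quantile-normalized again, and 107 and 138 when a robust trend was used. They were 135 and 176 for an adjusted p below 0.10, and 282 and 401 for changes of 1.5-fold or more whose unadjusted p was below 0.05. Leaving out each array gave 0 to 0 calls in limma for both counts, where the lone array is taken to have the spread of the opposite pair; 1292 to 2367 clusters then had an unadjusted p below 0.05. With the replicate block the counts were 0 and 0 (2195 at an unadjusted p under 0.05), and the standard error of DNMT3B was 0.124 in place of 0.238. The cause of these shifts was not tested.

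A second quantile normalization turned the sign of the differences nearest 0, to 0.017 for UHRF1, 0.0088 for DNMT3A, 0.0044 for TET2 and 0.0031 for CTCF. Over the left-out arrays the differences ran from -0.19 to -0.07 for DNMT1, -0.21 to 0.19 for UHRF1, -0.105 to 0.085 for DNMT3A, -0.46 to 0.20 for DNMT3B, -0.13 to 0.36 for DNMT3L, -0.86 to 0.01 for TET1, -0.105 to 0.095 for TET2, 0.015 to 0.205 for TET3, 0.12 to 0.13 for TDG and -0.145 to 0.105 for CTCF, and the median over the members from -0.025 to 0.05. In the main fit no log2 difference smaller than 0.82 in size was called at the adjusted threshold.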
